A study of Mus musculus with 12 samples.

Results

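Glutamate and GABA receptor genes encode the subunits through which neurons answer the main excitatory and the main inhibitory transmitter. They were followed here in dorsal root ganglia (DRG), where the sensory neurons of limbs and trunk have their cell bodies. Members were all gene names in the count tables that begin as an AMPA (Gria), kainate (Grik), NMDA (Grin), metabotropic glutamate (Grm), GABA-A (Gabra, Gabrb, Gabrg, Gabrd, Gabre, Gabrq, Gabrr) or GABA-B (Gabbr) receptor gene. The rule found 44 members among 44345 gene names, the same in both tables.

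The libraries came from sciatic (L4-L6) DRG of C57BL/6 mice aged 5 to 8 weeks that had lived for 10 days in environmental enrichment (EE), that is, in cages offering more stimulation, or in standard housing (SH). Column names of the whole-DRG libraries include Sham and those of the captured libraries lack it. Whether those mice had a sham procedure is not given in the sources used here, so that a handling of those mice that differs from the captured ones cannot be told apart from the preparation. Laser-captured large neurons, cut from 16 µm sections stained with toluidine blue and at least 30 µm across, came from 3 mice per library, and whole DRG from 2 mice per library. Each of the 4 groups (captured EE, captured SH, whole-DRG EE and whole-DRG SH) had 3 libraries. Captured RNA was of lower integrity (RIN 6 to 7, against above 7.5 in whole DRG) and went into a ribosomal RNA depletion kit, whereas whole DRG went into an mRNA kit, so that capture and kit cannot be told apart. That different pools held different mice is not stated, and p-values therefore measure the scatter among these 12 libraries alone, part of which may be technical.

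AMPA and kainate receptors are cation channels gated by glutamate that carry fast excitation. NMDA receptors also pass calcium and need an obligatory subunit, encoded by Grin1, beside others. Metabotropic receptors act through G proteins, and those of group III sit mostly on axon terminals, where they limit release. GABA-A receptors are chloride channels of several subunits, and GABA-B receptors are G protein-coupled pairs of Gabbr1 and Gabbr2. In primary sensory neurons chloride is kept high by the importer encoded by Slc12a2, so that GABA depolarises their terminals, which underlies presynaptic inhibition in the spinal cord.

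Captured libraries held 19296230 to 29434351 reads in genes and whole-DRG libraries 11343579 to 17036481, and the members took 0.218 to 0.239% of these in captured libraries and 0.157 to 0.175% in whole DRG. Nociceptor markers (20 genes of pain-sensing, mostly small neurons) summed to 3877 to 4818 CPM (read counts relative to library size, scaled by TMM, edgeR's correction for library composition) in captured EE libraries and to 4998 to 6018 CPM in captured SH libraries. Markers of large-diameter neurons (20 genes, such as Pvalb and Nefh) summed to 12306 to 16785 CPM in captured EE and 9852 to 12084 CPM in captured SH, and satellite glia markers (12 genes) to 4196 to 4407 CPM in captured EE and 3644 to 3849 CPM in captured SH. None of these 3 sums overlapped between EE and SH in captured libraries. Of the tested markers, 18 of 20 nociceptor genes had a negative fold change, 19 of 20 large-diameter genes and 10 of 12 satellite glia genes a positive one, and 1 marker on these lists passed the test, Fabp7 of satellite glia. Captured EE replicate 1, the single library of lane 1, lay nearest to SH in the nociceptor, large-diameter and satellite glia sums, at 4818, 12306 and 4196 CPM. It also held the most reads in genes, 29434351. In whole DRG the nociceptor and satellite glia sums overlapped between EE and SH, and the large-diameter sum was 14840 to 15758 CPM in EE and 16073 to 17020 CPM in SH, with 10 of its 20 genes positive and 10 negative. Most of that sum came from the neurofilament genes Nefh, Nefm and Nefl. Without them it overlapped in whole DRG (3071 to 3373 CPM in EE, 3149 to 3228 CPM in SH) and in captured neurons (2898 to 3750 CPM in EE, 2673 to 3036 CPM in SH). Central markers (12 genes of spinal cord and central glia) summed to 81.1 to 108 CPM in captured EE and 62.0 to 74.0 CPM in captured SH. Here too EE replicate 1 lay nearest to SH, at 81.1 CPM. Slc17a7, which is also on the partner list below, gave 45.4 to 75.0 CPM of this sum in captured EE and 34.7 to 51.0 CPM in captured SH. The other central markers summed to 29.8 to 35.7 CPM in captured EE and 23.0 to 27.3 CPM in captured SH, with Slc32a1, Olig2 and Neurod2 at 0 in every whole-DRG library. In bulk libraries, fewer cells of a type and less RNA per cell cannot be told apart.

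In both preparations a few subunits dominated their families. Levels of different genes are compared per kilobase of transcript, as CPM per kb in captured neurons and as the authors' FPKM in whole DRG, scales that were normalised separately. Grik1, the gene of the kainate subunit GluK1, is known in rat DRG mainly from small C-fibre neurons. By the lengths used here it had the highest level of all members. Its means were 79.7 ± 5.7 in EE and 117 ± 16 in SH per kb in captured neurons, and 60.5 ± 3.8 FPKM in EE and 61.6 ± 5.3 FPKM in SH in whole DRG (SD, n = 3 per group here and below). The GABA-B pair followed, with Gabbr1 at 57.6 ± 3.4 in EE and 63.1 ± 5.0 in SH and Gabbr2 at 39.3 ± 2.3 in EE and 41.2 ± 3.4 in SH per kb in captured neurons. These intervals of Gabbr1 and Gabbr2 overlapped between the housings, whereas the 2 genes lay apart from each other. The lengths used were implied by the authors' FPKM, at 3.15 kb for Grik1 and 7.81 kb for Gabbr1. GENCODE vM21 gives 6721 and 7764 exonic bases, so the rank of Grik1 above Gabbr1 holds for the implied lengths alone. Short implied lengths were also found for Gria2 (6.99 kb, against 15548 exonic bases), Gabra2 (2.41 kb, against 7640), Gabrg1 (4.80 kb, against 7869) and Grik2 (8.32 kb, against 13246), among others. Their ranks, and the summed levels and shares of families given below, carry the same limit.

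The AMPA family was led by Gria4, at 27.2 ± 3.5 in EE and 20.4 ± 1.8 in SH per kb in captured neurons. Gria2, whose edited product makes AMPA receptors nearly impermeable to calcium, came next at 11.4 ± 0.55 in EE and 9.28 ± 0.59 in SH. Gria3 (5.61 ± 1.2 in EE, 5.35 ± 0.16 in SH) and Gria1 (3.99 ± 0.85 in EE, 4.90 ± 0.61 in SH) did not differ from each other beyond their spread. In whole DRG the order was the same, with Gria4 at 15.7 ± 0.54 FPKM in EE and 15.2 ± 0.54 FPKM in SH and the other 3 between 2.00 and 3.4 FPKM.

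Among the GABA-A genes described here, Gabrg1 (17.9 ± 5.7 in EE, 9.69 ± 2.9 in SH) and Gabra2 (9.33 ± 1.3 in EE, 9.18 ± 2.2 in SH) had the higher levels per kb in captured neurons. Gabra3 (3.93 ± 1.3 in EE, 4.62 ± 0.85 in SH), Gabrb2 (3.73 ± 0.40 in EE, 2.77 ± 0.089 in SH) and Gabra5 (2.72 ± 0.66 in EE, 2.60 ± 0.63 in SH) came after them. They thus held α, β and γ subunits side by side, the makeup of most synaptic GABA-A receptors. Gabrg1 and Gabra2 lay within each other's spread in SH. In whole DRG, Gabrg1 had 10.5 ± 1.4 FPKM in EE and 9.0 ± 0.89 FPKM in SH, and Gabra2 9.80 ± 1.4 FPKM in EE and 9.99 ± 1.1 FPKM in SH, again within each other's spread.

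The NMDA family rested on Grin1, the obligatory subunit, at 8.80 ± 0.37 in EE and 8.74 ± 0.17 in SH per kb in captured neurons, and on Grin3a at 3.69 ± 1.0 in EE and 3.68 ± 0.35 in SH. Of the glutamate-binding subunits, Grin2a, Grin2b and Grin2c stayed under 1 CPM in every library. Grin2d averaged 0.626 ± 0.27 CPM in EE and 0.482 ± 0.33 CPM in SH in captured neurons, against 4.06 ± 0.44 CPM in EE and 4.59 ± 0.56 CPM in SH in whole DRG. Of the exonic bases of Grin1, 13.5% overlap an antisense RNA (Grin1os), of Grin2d 9.66%, and of Grin3b 32.1% the coding gene Tmem259 on the other strand. Since the strand setting of the counting is not given in the sources used here, reads from these overlapped bases cannot be told apart from those of the partners.

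Among metabotropic receptors the group III genes Grm7 (15.8 ± 0.54 in EE, 18.8 ± 1.3 in SH per kb in captured neurons), Grm8 (4.14 ± 0.92 in EE, 3.97 ± 0.43 in SH) and Grm4 (2.13 ± 0.14 in EE, 1.87 ± 0.19 in SH) stood far above groups I and II. The highest of group I, Grm5, reached 0.412 ± 0.095 in EE and 0.301 ± 0.090 in SH, and the highest of group II, Grm3, 0.659 ± 0.30 in EE and 0.682 ± 0.080 in SH. In all, 12 members stayed under 1 CPM in every library (with Gabra6, Gabrd, Gabrq, Gabrr1, Gabrr2, Gabrr3, Grin2a, Grin2b, Grin2c, Grm2 and Grm6 among them), and Gabra6 had no read in whole DRG.

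**Figure D1:**
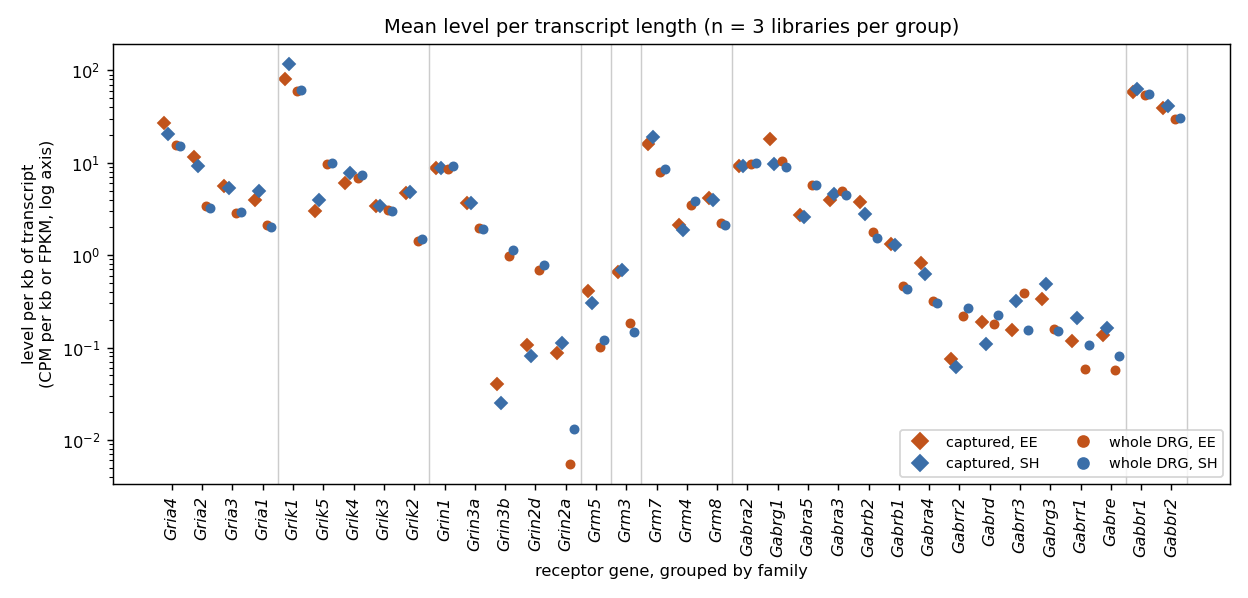
Mean level per kilobase of transcript on a log axis for the receptor genes described here with an SH mean of at least 0.1 in either preparation, grouped by family, in captured neurons (diamonds, CPM per kb) and whole DRG (circles, FPKM), EE in orange and SH in blue, 3 libraries per group; a mean of 0 is not drawn. By the lengths implied by the authors' FPKM, Grik1 and the GABA-B pair stand highest. Grin3b and Grin2d lie lower in captured neurons than in whole DRG. Of their exonic bases, 32.1% and 9.66% overlap genes on the other strand, whose reads cannot be told apart there.

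The first comparison asked which receptor transcripts differed with housing in captured large neurons. Of the 44 members, 33 had enough reads to be tested (edgeR quasi-likelihood test on all 16186 genes with enough reads, Benjamini-Hochberg adjustment, threshold 0.05), and none passed, where 3 of all genes did (0.0185%). An unadjusted p under 0.05 was reached by 8 members, 4 higher and 4 lower in EE, which is 24.2% of those tested against 15.9% of all genes (7.30% higher, 8.62% lower). EE and SH libraries did not overlap for 7 members (3 higher, 4 lower), which is 21.2% against 21.1% of all genes (10.2% higher, 10.9% lower), a share at the background. The median log2 fold change of the tested members was 0.0074, with 17 positive and 16 negative, and that of all genes was -0.00059.

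The kainate family was lower in EE captured neurons in its summed level per kb, at 102.5, 93.2 and 94.9 in EE libraries against 127, 156 and 129 in SH libraries. All 3 EE libraries lay below all 3 SH libraries, with a ratio of 0.706. Grik1 measured 272, 238 and 245 CPM in EE captured libraries and 340.1, 427 and 343 CPM in SH captured libraries. Every EE library lay below every SH library, and SH replicate 2 was the highest. The log2 fold change of Grik1 was -0.56 (SE 0.096), which did not pass the test (edgeR adjusted p = 0.0898). Its share of the kainate level was 82.2 ± 1.6% in EE and 85.4 ± 1.2% in SH, again without overlap.

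Both high-affinity kainate subunits, which form working channels only with GluK1 to GluK3, lay lower in EE as well. Grik4 (GluK4) measured 38.1, 37.1 and 33.9 CPM in EE and 43.4, 48.4 and 46.4 CPM in SH captured libraries, a log2 fold change of -0.34 (SE 0.081, adjusted p = 0.129 by edgeR). Grik5 (GluK5) measured 11, 12.2 and 11.3 CPM in EE and 15.7, 14.5 and 15.2 CPM in SH captured libraries, a log2 fold change of -0.39 (SE 0.10, adjusted p = 0.143 by edgeR). In neither gene did EE and SH libraries overlap, and neither passed the test. The remaining kainate genes overlapped between the housings, with log2 fold changes of -0.04 (SE 0.10) for Grik2 and -0.01 (SE 0.12) for Grik3. Beside these values, the summed nociceptor markers were 3877 to 4818 CPM in captured EE and 4998 to 6018 CPM in captured SH libraries, and their part in the kainate values was not tested.

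The AMPA family was higher in EE captured neurons in its summed level per kb, at 43.2, 50.8 and 50.7 in EE libraries against 40.4, 37.9 and 41.3 in SH libraries, a ratio of 1.21 without overlap. Gria4 measured 143, 182 and 179 CPM in EE and 129, 114 and 135 CPM in SH captured libraries. All EE libraries lay above all SH libraries, with EE replicate 1 nearest to them, and the log2 fold change of 0.42 (SE 0.10) did not pass the test (edgeR adjusted p = 0.129). Gria2 measured 75.5, 83.1 and 80.7 CPM in EE and 64.8, 60.8 and 69.0 CPM in SH captured libraries. Its groups did not overlap either, at a log2 fold change of 0.30 (SE 0.075, edgeR adjusted p = 0.129).

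Gria4 held 56.3 ± 2.3% of the AMPA level in EE captured neurons and 51.0 ± 2.2% in SH, without overlap, whereas Gria2 held 23.7 ± 1.1% in EE and 23.2 ± 0.56% in SH, with overlap. Gria1 had a log2 fold change of -0.29 (SE 0.15) and Gria3 of 0.07 (SE 0.14), and their libraries overlapped. The summed markers of large-diameter neurons, 12306 to 16785 CPM in captured EE and 9852 to 12084 CPM in captured SH, lay higher in the same libraries, without the neurofilament genes they overlapped, and their part in the AMPA values was not tested.

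**Figure D2:**
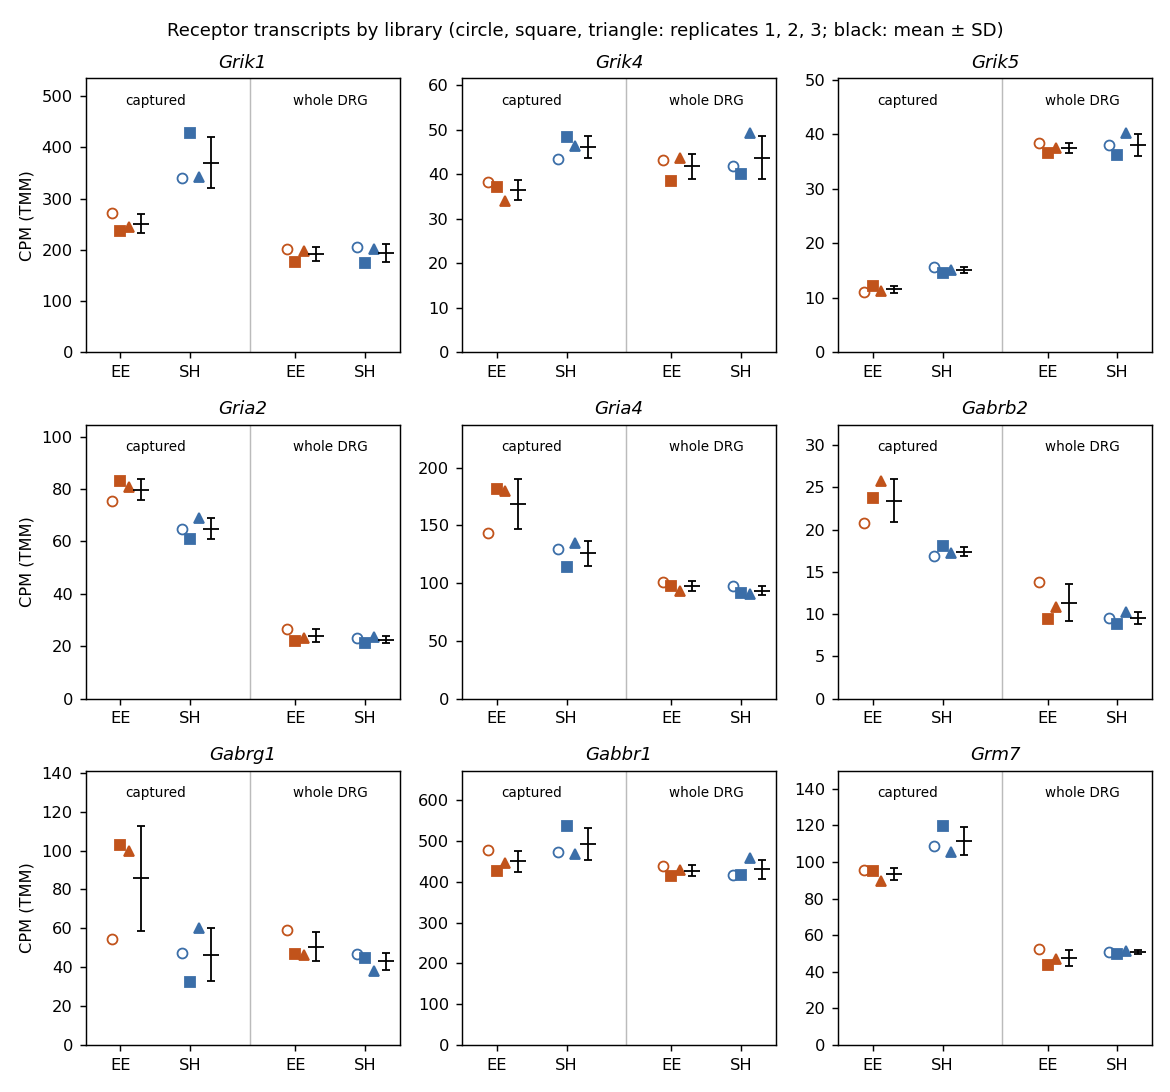
CPM (vertical axis, TMM-scaled, starting at 0) in each library for 9 receptor genes, EE in orange and SH in blue, with captured neurons left and whole DRG right of the grey line; open circles, filled squares and filled triangles are replicates 1, 2 and 3, and black bars the mean ± SD (n = 3). Captured EE libraries lie apart from captured SH libraries for Grik1, Grik4, Grik5, Gria2, Gria4, Gabrb2 and Grm7 and overlap for Gabrg1 and Gabbr1, while whole-DRG groups overlap in all 9.

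Promoters are shown for Gria2, Gria4, Grik4 and Grik5, whose captured groups lay apart as did those of Grik1, and for Gabrg1, which had the largest fold change of the tested members with means above 1 CPM, as the genomic context of these transcripts. Each runs 5′ to 3′ over 300 bases (250 before to 50 after the annotated start) from the RefSeq promoter table (GRCm38.p6), all on the minus strand. They lie at chr3:80802786-80803085 (Gria2), chr9:4796185-4796484 (Gria4), chr9:42944322-42944621 (Grik4), chr7:25072320-25072619 (Grik5) and chr5:70842568-70842867 (Gabrg1). Capitals mark GGGCGG (GC box) or CCAAT (CAAT box) on either strand, which shared no base in these sequences.
Gria2: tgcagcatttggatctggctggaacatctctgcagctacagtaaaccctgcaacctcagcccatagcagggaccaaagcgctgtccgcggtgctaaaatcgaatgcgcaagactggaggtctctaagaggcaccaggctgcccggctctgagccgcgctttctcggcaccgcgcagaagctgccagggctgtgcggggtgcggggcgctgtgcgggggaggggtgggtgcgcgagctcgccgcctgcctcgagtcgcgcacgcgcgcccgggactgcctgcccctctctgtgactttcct
Gria4: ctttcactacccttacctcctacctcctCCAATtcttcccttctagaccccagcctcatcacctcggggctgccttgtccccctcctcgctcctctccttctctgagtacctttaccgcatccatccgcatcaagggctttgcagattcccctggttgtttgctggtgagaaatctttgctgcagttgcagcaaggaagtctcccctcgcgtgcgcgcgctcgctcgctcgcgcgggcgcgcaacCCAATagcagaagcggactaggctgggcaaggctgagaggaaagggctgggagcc
Grik4: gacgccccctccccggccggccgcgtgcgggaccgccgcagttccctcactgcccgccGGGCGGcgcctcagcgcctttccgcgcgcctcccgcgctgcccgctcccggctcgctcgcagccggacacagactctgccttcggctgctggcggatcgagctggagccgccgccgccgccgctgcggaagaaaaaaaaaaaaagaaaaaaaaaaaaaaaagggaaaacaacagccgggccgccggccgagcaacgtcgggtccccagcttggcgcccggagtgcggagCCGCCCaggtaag
Grik5: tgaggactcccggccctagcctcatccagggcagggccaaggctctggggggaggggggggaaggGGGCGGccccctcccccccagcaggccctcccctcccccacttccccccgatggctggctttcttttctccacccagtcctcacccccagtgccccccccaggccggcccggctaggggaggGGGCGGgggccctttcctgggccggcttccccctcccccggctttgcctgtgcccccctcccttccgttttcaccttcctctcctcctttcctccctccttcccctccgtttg
Gabrg1: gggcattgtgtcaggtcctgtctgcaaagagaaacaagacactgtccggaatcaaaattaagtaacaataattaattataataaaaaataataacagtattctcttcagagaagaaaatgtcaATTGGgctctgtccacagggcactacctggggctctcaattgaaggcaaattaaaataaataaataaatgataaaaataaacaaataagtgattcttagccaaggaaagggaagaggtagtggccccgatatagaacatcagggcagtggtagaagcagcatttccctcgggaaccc
The promoters of Grik4 and Grik5 were 70.0% and 72.0% GC and held 2 GC boxes each. Those of Gria4 and Gria2 held none, and Gria4 (59.7% GC) had 2 CAAT boxes where Gria2 (65.7% GC) had neither motif. Gabrg1 was AT-rich at 38.3% GC, with 1 CAAT box. Gabrb2 and Grm7, whose captured groups also lay apart, have several promoters in the table and are not shown. Each Grm7 promoter held 1 GC box. The Gabrb2 promoter starting at 42420190 on chromosome 11 held 1 GC box, and the other promoters of Gabrb2 held none. The GC box occurred in 35.7% of all 32851 promoters of the table and in 19 of 38 promoters of the 31 members that the table holds, and the CAAT box in 37.4% of all and in 16 of the 38. These matches describe the letters in the window and no binding.

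GABA-A subunits in captured neurons went both ways, and the summed level per kb overlapped between the housings (97.9, 106 and 105 in EE, 92.2, 98.9 and 102 in SH). Gabrb2 (GABA-A β2) measured 20.8, 23.8 and 25.8 CPM in EE and 16.9, 18.0 and 17.3 CPM in SH captured libraries. All EE libraries lay above all SH libraries, at a log2 fold change of 0.43 (SE 0.10, edgeR adjusted p = 0.129). Gabrg1 (γ1) measured 54.5, 103 and 99.6 CPM in EE and 47.1, 32.5 and 59.9 CPM in SH captured libraries. EE replicates 2 and 3 stood above all others, but EE replicate 1 lay below SH replicate 3, and the log2 fold change of 0.88 (SE 0.25) did not pass the test (edgeR adjusted p = 0.158). Satellite glia markers summed to 4196 to 4407 CPM in captured EE and 3644 to 3849 CPM in captured SH libraries, and their part in these values was not tested.

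The GABA-B genes had -0.13 (SE 0.075) for Gabbr1 and -0.07 (SE 0.076) for Gabbr2. Their libraries overlapped, with Gabbr1 at 478, 426 and 445 CPM in EE against 472, 537 and 468 CPM in SH.

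Of the group III metabotropic receptors, Grm7 (mGluR7) measured 95.5, 94.9 and 89.7 CPM in EE and 109, 119.9 and 105 CPM in SH captured libraries. The groups of Grm7 did not overlap, and the log2 fold change of -0.25 (SE 0.071) did not pass the test (edgeR adjusted p = 0.153). Its share of the group III level was 71.7 ± 3.4% in EE and 76.3 ± 0.99% in SH, while the share of Grm4 was 9.64 ± 0.35% in EE and 7.56 ± 0.44% in SH, both without overlap. The summed level per kb of group III was 23.5, 21.3 and 21.3 in EE and 23.7, 26.8 and 23.6 in SH libraries, with EE replicate 1 just below the lowest SH library. Grin1 lay close in both housings, at 82.6, 85.1 and 89.7 CPM in EE against 87.1, 84.1 and 84.6 CPM in SH, a log2 fold change of 0.01 (SE 0.065). Grin3a differed among EE libraries (59.9, 37.8 and 38.7 CPM), which spanned the SH libraries (45.6, 49.7 and 41.0 CPM). Grm5 had 2.47, 3.96 and 3.49 CPM in EE and 3.18, 1.74 and 2.33 CPM in SH, and Grm3 3.51, 2.13 and 1.38 CPM in EE and 2.17, 2.73 and 2.38 CPM in SH, both with overlap.

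Lane 3 held 2 EE and 2 SH captured libraries, so that housing could be compared within it, leaving out EE replicate 1 (lane 1) and SH replicate 2 (lane 2). Within lane 3, 6 of 34 tested members passed the test (4 higher, 2 lower), where 4.06% of all genes did (1.88% higher, 2.18% lower). Gria4 (log2 fold change 0.45, adjusted p = 0.00120), Gria2 (0.29, adjusted p = 0.0387), Gabrb2 (0.53, adjusted p = 0.0181) and Gabrg1 (0.92, adjusted p = 0.000470) rose in EE by this edgeR fit. Grik1 (-0.50, adjusted p = 0.000568) fell. Without EE replicate 1 but with all SH libraries, 8 of 35 tested members passed by edgeR, the 6 of lane 3 and, on the lower side, Grik4 (-0.38, adjusted p = 0.0399) and Gria1 (-0.49, adjusted p = 0.0429). Of all genes 3.64% passed in that fit (1.70% higher, 1.94% lower). Leaving out any other captured library gave 0 members. DESeq2 on all 6 libraries called 6 members, against 5.53% of the genes it adjusted: Grik1 (adjusted p = 2.51e-05), Gria4, Gria2, Gabrb2, Grik4 and Grm7. With no filter on low counts edgeR called Gabrg1, Gria4, Gabrb2, Gria2, Grik1 and Grik4, against 2.48% of all genes. The call thus depended on EE replicate 1, on the tool and on the filter on low counts. The 7 members without overlap kept their sign in each of these fits. This follows largely from how they were picked, as groups apart in the same libraries, and adds no support.

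**Figure D3:**
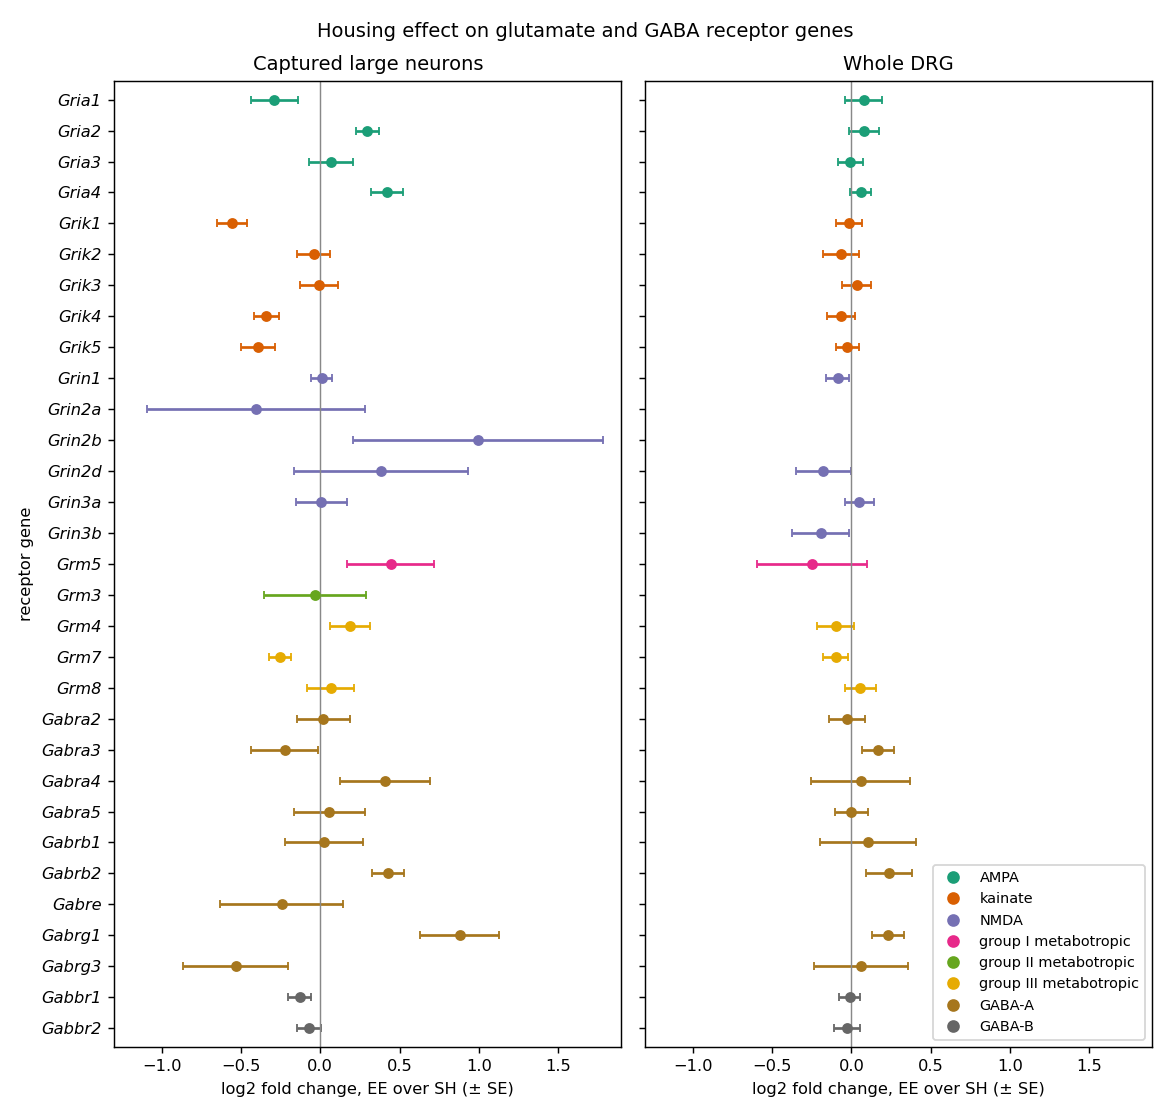
Log2 fold change of EE over SH (horizontal axis, bars ± SE) for the receptor genes described here and tested in captured neurons (left) or whole DRG (right), coloured by family. In captured neurons Gria2, Gria4, Gabrb2 and Gabrg1 lie right of 0 and Grik1, Grik4, Grik5 and Grm7 left of it, whereas the points of whole DRG lie between -0.25 and 0.24.

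The second comparison asked the same of whole ganglia, where receptor transcripts differed little with housing. Of 30 tested members none passed (edgeR, adjusted), where 1 of 15845 genes did (0.00631%), and 1 member had an unadjusted p under 0.05 (3.33%, against 2.9% of all genes, with 0 called by DESeq2 too). EE and SH libraries overlapped for all 30, where 7.48% of all genes had groups without overlap. Log2 fold changes ran from -0.25 to 0.24, with a median of -0.0033. Summed levels overlapped in every family, for example kainate with 81.6 ± 4.2 FPKM in EE and 83.3 ± 6.3 FPKM in SH, and AMPA with 24.1 ± 0.99 FPKM in EE and 23.3 ± 0.74 FPKM in SH.

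Grik1 in whole DRG measured 203, 176 and 197 CPM in EE and 205, 174 and 202 CPM in SH, a log2 fold change of -0.01 (SE 0.081). Gria4 measured 101, 97.6 and 93.1 CPM in EE and 97.9, 91.7 and 90.8 CPM in SH, a log2 fold change of 0.06 (SE 0.069). EE and SH libraries overlapped for both genes. Gabrg1 had the smallest p, with 59.0, 46.6 and 46.2 CPM in EE and 46.6, 44.5 and 38.1 CPM in SH, a log2 fold change of 0.23 (SE 0.10) and an edgeR adjusted p of 1.00. Its EE replicate 1 was the highest library, and the other 2 EE libraries lay at the level of SH replicate 1.

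The next by p in whole DRG were Gabra3 (α3; 21.6, 17.8 and 20.2 CPM in EE, 18.9, 16.4 and 17.5 CPM in SH), Gabrb2 (13.8, 9.43 and 10.8 CPM in EE, 9.54, 8.88 and 10.3 CPM in SH) and Grm7 (52.3, 43.5 and 46.9 CPM in EE, 51.1, 49.9 and 51.5 CPM in SH). Grin1 measured 88.9, 83.9 and 78.3 CPM in EE and 84.6, 90.9 and 91.2 CPM in SH. All 4 overlapped between the housings, with log2 fold changes of 0.17, 0.24, -0.10 and -0.09. Grik4 (43.1, 38.5 and 43.5 CPM in EE, 41.8, 40.0 and 49.2 CPM in SH), Grik5 (38.4, 36.6 and 37.4 CPM in EE, 38.0, 36.2 and 40.2 CPM in SH) and Gria2 (26.7, 22.0 and 23.1 CPM in EE, 23.2, 21.1 and 23.5 CPM in SH) overlapped too. Gabbr1 (439, 413 and 429.7 CPM in EE, 416, 417 and 458 CPM in SH), Grin2d (4.14, 4.45 and 3.59 CPM in EE, 4.36, 4.19 and 5.22 CPM in SH) and Grin3b (3.15, 3.14 and 3.59 CPM in EE, 4.18, 3.68 and 3.42 CPM in SH) did likewise. The highest members of the sparse groups I and II were Grm5 (0.630, 0.997 and 0.815 CPM in EE, 1.24, 0.794 and 0.871 CPM in SH) and Grm3 (0.720, 0.690 and 0.571 CPM in EE, 0.648, 0.577 and 0.335 CPM in SH). Neither lay apart between the housings. Among members too low to be tested, Gabrr3 (0.450, 0.613 and 0.897 CPM in EE, 0.295, 0.144 and 0.335 CPM in SH) and Grin2c (0.450, 0.920 and 0.326 CPM in EE, 0.295, 0.144 and 0.268 CPM in SH) had groups without overlap at these few reads.

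Whole-DRG libraries of the same number shared a lane, and the fit with this replicate block called none of the members, against 0.202% of all genes, with 1 member at an unadjusted p under 0.05 (5.19% of all genes). That member was again Gabrg1 (log2 fold change 0.23, edgeR adjusted p = 0.393). Within each of the 3 lanes EE lay above SH for 6 of the 30 tested members (against 11.8% of all genes), among them Gabrg1, Gabra3, Gabrb2, Gria4 and Grin3a, and for no member did EE lie below SH in all 3 (11.8% of all genes).

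The third comparison tested the difference of the housing effect, captured neurons minus whole DRG, over all 12 libraries. None of 36 tested members passed, and neither did any of 17412 genes (0%). An unadjusted p under 0.05 was reached by 5 of the 36, 1 higher and 4 lower. Of all 17412 genes, 921 were higher (5.29%) and 1113 lower (6.39%) at this p, 11.7% in either direction. Grik1 had the smallest p, with a difference in log2 fold change of -0.56 (SE 0.13, edgeR adjusted p = 0.191), followed by Grik5 (-0.38, SE 0.11, edgeR adjusted p = 0.239) and Gabrr3 (-2.36, SE 0.77, edgeR adjusted p = 0.267). Gabrr3 rests on values under 1 CPM in every library, with 0.203, 0.152 and 0.413 CPM in EE and 0.706, 0.282 and 0.621 CPM in SH captured libraries. For Grik1 the difference passed by DESeq2 (adjusted p = 0.0151, against 1.94% of genes called), with the captured libraries of lane 3 alone (edgeR adjusted p = 0.0434, against 0.988%) and without captured EE replicate 1 (edgeR adjusted p = 0.0381, against 1.32%). For Gria4 it passed in the last of these (0.46, edgeR adjusted p = 0.0440).

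Levels in captured neurons and whole DRG were set side by side without a test. Of the 32 members that reached 1 CPM in some library, 25 had a higher and 7 a lower mean CPM in captured SH than in whole-DRG SH libraries. The share of all genes higher in captured libraries was not counted, so these numbers show no trait particular to the receptors. Grik2 averaged 40.6 CPM in captured SH and 12.5 CPM in whole-DRG SH, Gria2 64.9 CPM in captured SH and 22.6 CPM in whole-DRG SH, and Grm7 111 CPM in captured SH and 50.8 CPM in whole-DRG SH. On the other side, Grik5 averaged 15.1 CPM in captured SH and 38.1 CPM in whole-DRG SH, and Gabra5 6.94 CPM in captured SH and 15.2 CPM in whole-DRG SH. Grin3b averaged 0.0827 CPM in captured SH and 3.76 CPM in whole-DRG SH. Of its exonic bases 32.1% overlap Tmem259, so that reads of that gene may be part of this difference, which was not tested. Among kainate genes the makeup thus differed, with Grik5 at 2.89 ± 0.42% of the family's level in captured SH and 11.9 ± 0.46% in whole-DRG SH, and Grik1 at 85.4 ± 1.2% in captured SH and 73.9 ± 1.6% in whole-DRG SH. Among AMPA genes, Gria2 held 23.2 ± 0.56% of the level in captured SH and 13.9 ± 0.72% in whole-DRG SH.

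**Figure D4:**
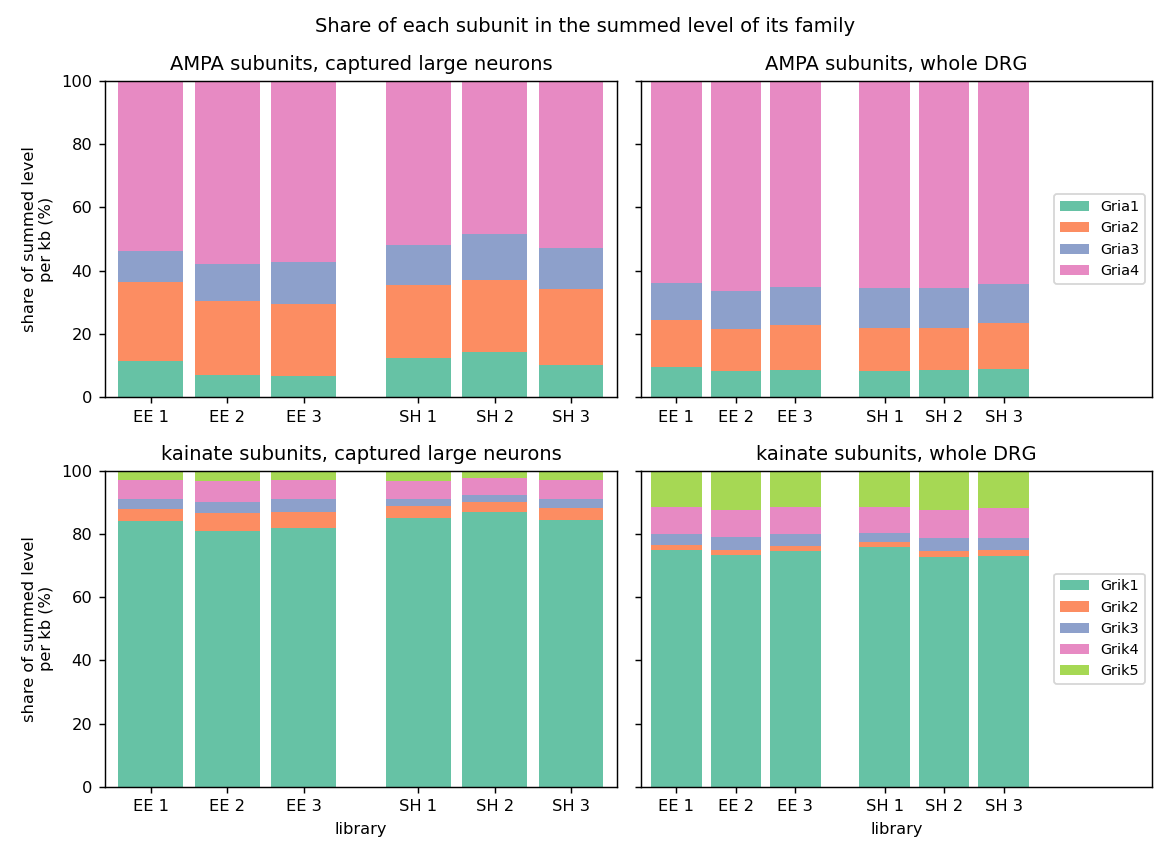
Share (%) of each subunit in the summed level per kb of its family, stacked to 100, for AMPA (top) and kainate (bottom) genes in each EE and SH library, captured neurons left and whole DRG right. Gria4 takes about the same share in whole-DRG EE and SH libraries and a larger one in captured EE (56.3%) than captured SH (51.0%), and Grik1 takes most of the kainate level in all 12 libraries.

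Of the 18 GABA-A members, 16 lie in 5 clusters with gaps of at most 1 Mb between genes (GENCODE vM21, mm10). On chromosome 5 (70751047 to 72149037) lie Gabrg1, Gabra2, Gabra4 and Gabrb1, with log2 fold changes in captured neurons of 0.88, 0.02, 0.41 and 0.02. Grik1 lies on chromosome 16 (87895900 to 88290265, minus strand), Grm7 on chromosome 6 (110645581 to 111567230, plus strand), and Gria4 (4417896 to 4796234) and Grik4 (42518135 to 42944493) both on chromosome 9, on the minus strand.

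A list of 85 partner genes (auxiliary subunits, scaffolds, transporters and enzymes of glutamate and GABA) was read beside the receptors. Of these, 81 were tested in captured neurons and 81 in whole DRG, and none passed in either (edgeR, adjusted). In captured neurons 12 of 81 were higher and 13 of 81 lower in EE at an unadjusted p under 0.05, with a median log2 fold change of -0.03. Of all genes, 1181 of 16186 were higher (7.30%) and 1395 of 16186 lower (8.62%). In whole DRG 3 of 81 were higher and 1 of 81 lower at an unadjusted p under 0.05, with a median of -0.02. Of all genes there, 213 of 15845 were higher (1.34%) and 246 of 15845 lower (1.55%). DESeq2 called 7 in captured neurons, against 5.53% of the genes it adjusted, and 0 in whole DRG, where it called 1 of all genes.

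The smallest p in captured neurons belonged to Homer2, a scaffold of group I metabotropic receptors, with 77.9, 73.8 and 72.3 CPM in EE and 89.2, 107 and 95.1 CPM in SH (log2 fold change -0.38, SE 0.079). Frrs1l, an assembly factor of AMPA receptors, had 102, 111 and 114 CPM in EE and 83.0, 83.7 and 94.3 CPM in SH (0.33, SE 0.077). In both, EE and SH libraries did not overlap, as was also so for Gabarapl1 (364, 348 and 352 CPM in EE, 307, 283 and 314 CPM in SH), a relative of the GABA-A receptor-associated protein, and for the glutamate importer Slc1a3, which also marks satellite glia (17.7, 21.7 and 22.7 CPM in EE, 14.5, 14.5 and 16.2 CPM in SH). Shisa6, an AMPA auxiliary subunit, had 2.4, 1.88 and 2.43 CPM in EE and 3.53, 5.51 and 3.88 CPM in SH captured libraries, and 7.83, 6.75 and 6.85 CPM in EE and 5.66, 4.91 and 5.09 CPM in SH whole-DRG libraries. Its groups thus stood apart in both preparations, in opposite directions. Of all genes, 21.1% had groups without overlap in captured neurons and 7.48% in whole DRG. The share of genes apart in opposite directions was not counted, and Shisa6 was named for its small p.

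In whole DRG the neutral amino acid exchanger Slc1a5 (37.8, 47.3 and 38.6 CPM in EE, 32.0, 33.6 and 34.0 CPM in SH) and the AMPA auxiliary gene Cnih3 (6.48, 5.29 and 4.81 CPM in EE, 4.36, 4.69 and 4.29 CPM in SH) lay higher in every EE library. The glutamate importer Slc1a2 lay lower, with 6.12, 5.60 and 5.30 CPM in EE and 7.48, 7.07 and 6.77 CPM in SH. None of these passed the test.

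Within lane 3, 8 partner genes passed by edgeR, 5 higher and 3 lower in EE captured neurons, against 1.88% and 2.18% of all genes. Higher were the glutamate importers Slc1a1 (log2 fold change 0.80, adjusted p = 0.0197) and Slc1a3 (0.53, adjusted p = 0.0235), the vesicular transporter Slc17a7 (0.62, adjusted p = 0.00188), the scaffold Dlg2 (0.41, adjusted p = 0.0102) and Frrs1l (0.35, adjusted p = 0.0192). Lower were the vesicular transporter Slc17a8 (-0.78, adjusted p = 0.00509), Neto2, an auxiliary subunit of kainate receptors (-0.47, adjusted p = 0.0109), and Homer2 (-0.33, adjusted p = 0.0174). Slc17a7 measured 45.4, 69.3 and 75.0 CPM in EE and 43.1, 34.7 and 51.0 CPM in SH captured libraries, and Slc17a8 17.3, 11.9 and 10.1 CPM in EE and 18.4, 24.0 and 19.3 CPM in SH. For Slc17a7 EE replicate 1 lay among the SH libraries, and for Slc17a8 it lay nearest to them.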

How the data were processed

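RNA was sequenced from 12 libraries, 3 in each of 4 groups. Per the submitters' processing notes, TopHat2 2.0.12, Bowtie2 2.2.3, HTSeq 0.6.0, edgeR 3.8.6 and build mm10 were named, without their roles. The authors deposited 1 table of read counts per preparation (44345 gene names, 5 summary rows left out) and FPKM values for whole DRG. For the 1 member with several FPKM rows, the row with the lowest identifier was taken. The second table deposited for captured neurons held counts times a constant per library and was not used. Transcript length was taken as the ratio of counts to FPKM.

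Counts were fitted with edgeR 4.0.16 in R 4.3.3 (filterByExpr, TMM, quasi-likelihood test, Benjamini-Hochberg adjustment at 0.05), each preparation alone, and the difference as an interaction over all 12 libraries. filterByExpr keeps a gene with enough reads in as many libraries as a group holds, so a gene can pass through 1 group alone. Alternatives were DESeq2 1.42.0, other scalings, no filter, leaving out each library, lane 3 alone and a replicate block. Scripts were tested on simulated counts. In whole DRG the numbers pair EE and SH libraries, which shared lanes 4, 5 and 6 per the labels. Deviations of same-numbered libraries correlated at 0.33, 0.16 and 0.074. Those of unlike number correlated at -0.34 to 0.19, so the correlations alone do not single out the pairs. Captured libraries (EE lanes 1, 3 and 3, SH lanes 3, 2 and 3) shared a lane only for replicate 3 and were not treated as paired. No libraries of a group were duplicates.

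Members and lists were chosen with earlier results of these data known. Genes named with every library's value are those past the threshold in the edgeR fit, with the block or in lane 3, the 8 smallest p per preparation, the 3 smallest p for the difference and the highest of each family, plus the 5 partner genes with the smallest p per preparation and those past the threshold. Grin3a, Grin2c and the low Gabrr3 in whole DRG were named after their values were seen. Gene positions are from GENCODE vM21. Some members and 1 partner gene that meet these rules are counted but not reported here.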

Additional observations from a re-analysis of the deposited data

Results flagged for a closer look

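Shisa6, an AMPA auxiliary gene and no receptor subunit, had EE and SH libraries that stood apart in opposite directions in the 2 preparations, lower in EE captured neurons (log2 fold change -0.94, SE 0.23) and higher in EE whole DRG (0.45, SE 0.14). The difference of the housing effect, captured neurons minus whole DRG, was -1.40 on the log2 scale (SE 0.27) and did not pass the edgeR interaction test (adjusted p = 0.101). Without captured EE replicate 1 it passed at -1.45 (edgeR adjusted p = 0.0214) and with the captured libraries of lane 3 alone at -1.23 (edgeR adjusted p = 0.0380). Its highest captured level was 5.51 CPM. Shisa6 was flagged among partner genes picked by smallest p. Groups did not overlap for 21.1% of all genes in captured neurons and 7.48% in whole DRG. How many genes lay apart in opposite directions was not counted.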

How the results depend on the processing

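In captured neurons 0 members were called by edgeR with all libraries, 6 by DESeq2, 6 with no filter on low counts, 6 within lane 3 alone, and 0 to 8 when each library was left out, the 8 without EE replicate 1. For the partner list in captured neurons the counts were 7 by DESeq2, 10 with no filter, 8 within lane 3 alone and 0 to 8 when each library was left out. Beside both lists, DESeq2 called 5.53% of the genes it adjusted. Of all genes, 2.48% passed with no filter, 4.06% within lane 3 alone and 3.64% without EE replicate 1. For the difference between preparations, member counts were 1 by DESeq2, 2 with no filter and 1 with lane 3 alone. They were 0 to 2 when each library was left out. Partner counts were 1, 4, 4 and 0 to 5 under the same settings, and the main edgeR fit gave 0 for both lists. For this difference DESeq2 called 1.94% of the genes it adjusted, and the fit with no filter 457 of 36758 genes. Of all genes, 0.988% passed with lane 3 alone and 1.32% without captured EE replicate 1, which gave the highest of the counts with a library left out. The cause of these differences between settings was not tested. In whole DRG no alternative called a member. Scaling by DESeq2 size factors or library size alone gave 0 members in all 3 comparisons.

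The replicate block called 0 members in whole DRG, 0 in captured neurons and 0 for the difference. Over all genes it called 32 in whole DRG, against 1 without it, and 0 in captured neurons, against 3, so that Fabp7 was no longer called (edgeR adjusted p = 0.0626). In captured neurons same-numbered libraries shared a lane only for replicate 3, and they correlated at 0.11, -0.044 and 0.15, so the block carries no pairing there.

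Signs reversed for many members near 0. For genes chosen by the rule on named genes they are given as the lowest and highest log2 fold change when each library was left out. In whole DRG these were Gabbr1 (-0.033 to 0.037), Grik1 (-0.084 to 0.045), Grik4 (-0.12 to 0.026), Gria2 (-0.0036 to 0.14) and Grik5 (-0.060 to 0.014). In captured neurons these were Grin1 (-0.025 to 0.036) and Grm3 (-0.47 to 0.23). Other members with values in the text that reversed in captured neurons included Grik2 (-0.13 to 0.072), Grik3 (-0.11 to 0.092), Gria3 (-0.082 to 0.23), Grin3a (-0.25 to 0.13), Gabra2 (-0.14 to 0.22) and Gabrb1 (-0.33 to 0.19). Others near 0, such as Gabra5 and Grm8, are not listed with their ranges. Family sums moved by less than 1 SD with library size alone in captured neurons and, in an alternative chosen after seeing the data, with TMM-scaled CPM per kb in place of FPKM in whole DRG. Depth limits the 12 members under 1 CPM.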
